A study of Mus musculus with 12 samples.

Results

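The genes described here fold, import and clear proteins of the endoplasmic reticulum (ER), or sense and answer ER stress. They were 36 genes chosen by name, with 16 ER chaperones and folding enzymes, 4 parts of the import machinery, 6 parts of ER-associated degradation and 10 sensors and stress factors. Of these, 35 were read on the arrays, out of 22180 genes in all that had a probe set with a single gene symbol. Pdia4, a disulfide isomerase, was not read because its probe set carries 2 symbols. Where a gene had several probe sets the brightest over all 12 arrays was used. The other probe sets of Derl2, Edem1 and Ssr1 were called in no comparison, and that of Edem1 had differences below 0 in iTreg (-0.12 against eTreg and -0.17 against e_iTreg). The other probe set of Sec61b was called higher against e_iTreg only.

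Splenic regulatory T cells (Treg) of 3 groups were sorted by flow cytometry and profiled on Affymetrix arrays, with 4 biological replicates per group. Every mouse had been made allergic to ovalbumin (OVA) and challenged with it. All were DEREG mice, in which the Foxp3 promoter drives a fusion of the diphtheria toxin receptor and GFP, and diphtheria toxin (DTx) removes the cells that express it. The eTreg group received human serum albumin (HSA) at 2 g/kg, a control protein, and no DTx per the series design, so its cells are endogenous Treg. The e_iTreg group received intravenous immunoglobulin (IVIg), pooled human IgG, at 2 g/kg and no DTx, and holds endogenous and induced Treg together. The iTreg group received DTx at 40 ng/g to deplete endogenous Treg and then IVIg at 2 g/kg. Groups are taken from the series design, since the growth protocol has the same wording for every sample and lists DTx ahead of either protein. No age is given in the labels, a group given DTx and HSA was not analysed here, and DTx and IVIg therefore change together between iTreg and eTreg. In the depleted mice any Treg that survived or returned after DTx would be sorted with the induced cells.

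Proteins destined for secretion or for the cell surface enter the ER through the Sec61 channel, lose their signal peptide and are folded by chaperones such as BiP (the product of Hspa5) and by disulfide isomerases. When folding lags, the membrane sensors IRE1, PERK and ATF6 start the unfolded protein response. IRE1 splices the mRNA of the transcription factor XBP1, PERK slows translation and raises ATF4, and ATF6 is cut to release a factor that induces chaperones. Plasma cells, which secrete antibody, hold very high levels of this machinery, and activated T cells raise parts of it as they grow.

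The arrays were compared before the genes were. Correlations between the 12 arrays were 0.954 to 0.988, and the mean level of 7 T cell and Treg markers lay between 11.46 and 11.61 in every array, with 0 of the 7 called in either comparison with iTreg. Foxp3, the transcription factor that defines Treg, was at 12.33, 12.50, 12.54 and 12.46 in eTreg, 12.36, 12.19, 12.08 and 12.56 in e_iTreg and 11.84, 12.16, 12.26 and 12.43 in iTreg, as log2 levels. Igkc, a light chain gene that plasma cells express, had no probe set with a single symbol. Some arrays stood apart. The 7 plasma cell markers that are neither ER proteins nor Treg factors (Jchain, Tnfrsf17, Sdc1, Ighg3, Ighm, Eaf2 and Tnfrsf13b) had a mean level of 9.37 in iTreg replicate 4 and of 6.72 to 7.74 in the other 11 arrays. The mean of 13 B cell markers was 6.36 and 6.44 in eTreg replicates 3 and 4 and 6.40 in e_iTreg replicate 4, against 7.56 to 8.53 in the other 9. Xist was at 5.82 in e_iTreg replicate 4 and at 10.26 to 11.37 elsewhere, and the Y-linked Eif2s3y was at 4.33 in eTreg replicate 3 and 4.47 in iTreg replicate 4 and at 7.12 to 9.72 elsewhere, so that most arrays hold RNA with the signal of both sexes. Results that rest on these arrays are given below with and without them.

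All levels are log2 values normalized between arrays by the authors, and a difference of 1 is a doubling. A gene is called higher or lower where its adjusted p from limma (Benjamini-Hochberg over 23521 probe sets) is under 0.05. Both comparisons with iTreg share the 4 iTreg arrays, so their values are given side by side and are not independent of each other.

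The ER genes were higher in iTreg than in either other group for much of the folding and import machinery. Of the 6 degradation genes 0 were called against eTreg and 1 against e_iTreg. Of the 10 sensors and stress factors, 2 were called higher and 1 lower against eTreg, and 2 higher and 2 lower against e_iTreg. Against eTreg, 14 of the 35 were called higher and 2 lower, where 5.36% of all probe sets were called higher and 4.63% lower. Against e_iTreg, 15 were called higher and 3 lower, where 6.49% of all probe sets were called higher and 4.75% lower. The median difference of the 35 was 0.33 against eTreg and 0.29 against e_iTreg, and the medians over all probe sets were -0.01 and -0.07. In both comparisons 29 of the 35 differences were above 0. The genes called higher in both were 12, namely Sdf2l1, Creld2, Hsp90b1, Pdia6, Dnajb11, Hyou1, Canx, Ppib, Manf, Ssr1, Atf6 and Asns, where 4.61% of all probe sets were called higher in both. Ppp1r15a and Dnajb9 were called lower in both, where 2.81% of all probe sets were. All 4 iTreg arrays lay above all 8 others for 12 of the 35 genes, where 5.08% of all probe sets did so. Of those 12 genes, 9 were chaperones or folding enzymes. Both genes called lower in both comparisons had all 4 iTreg arrays below the other 8, where 4.19% of all probe sets did so. RNA was measured in bulk, so fewer cells that express a gene and less RNA per cell cannot be told apart. The tests weigh each difference against the spread among 4 arrays per group, and that number sets their precision.

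**Figure D1:**
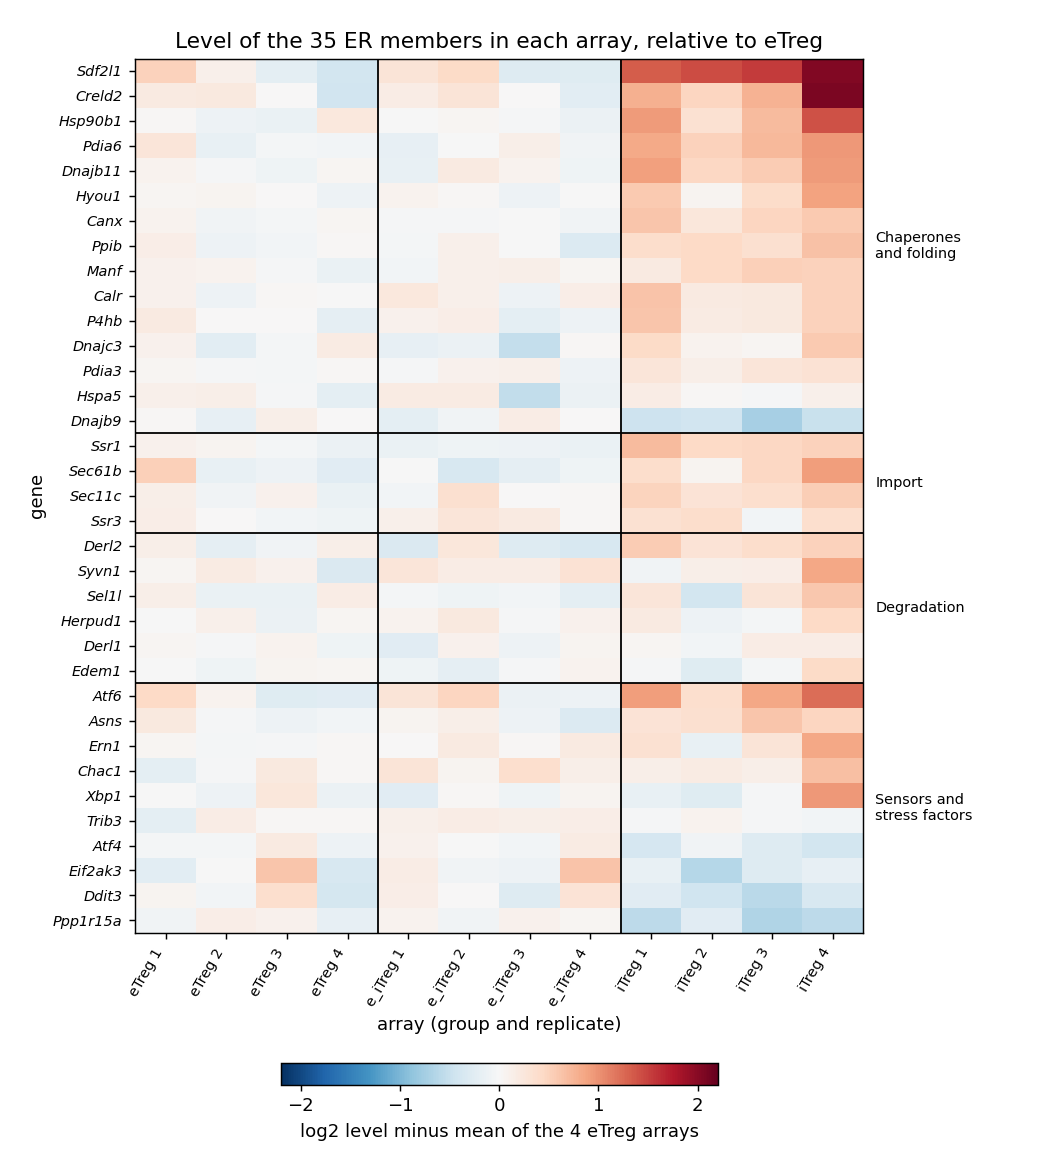
Log2 level of each of the 35 genes (rows, by branch) in each of the 12 arrays (columns, by group), minus the mean of the 4 eTreg arrays (colour scale). In the iTreg columns most chaperone rows are above 0, Dnajb9 and Ppp1r15a are below 0, and iTreg replicate 4 holds the highest iTreg value for 20 of the 35 genes.

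The ER chaperone genes are known targets of ATF6, which with the CCAAT-binding factor NF-Y acts through the ER stress response element (ERSE), written here as CCAAT, then 9 bases of any kind, then CCACG. The promoters of 30 of the 35 genes were found in the RefSeq table of the GRCm38.p6 assembly (250 bases before to 50 after the start), and both strands were searched. Promoters of Hyou1, Atf6, Manf, Derl1 and Sec11c were not in that table. The genes were chosen by name, known ATF6 targets among them, so a larger share of this element among them is no test. ERSE letters were found in 8 of the 30 promoters (26.7%) and in 39 of 32851 promoters of all genes (0.119%). The sequences below show these matches with 20 bases on either side, 5′ to 3′ on the strand of the gene, with the fixed letters of the element in capitals (CGTGG and ATTGG where it lies on the opposite strand).
Hspa5: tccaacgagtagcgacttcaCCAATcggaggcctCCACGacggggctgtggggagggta
Pdia6: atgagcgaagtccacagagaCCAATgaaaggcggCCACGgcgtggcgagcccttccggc
Canx: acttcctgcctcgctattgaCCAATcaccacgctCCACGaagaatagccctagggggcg
Hsp90b1, distal: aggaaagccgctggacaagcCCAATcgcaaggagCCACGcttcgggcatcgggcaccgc
Hsp90b1, proximal: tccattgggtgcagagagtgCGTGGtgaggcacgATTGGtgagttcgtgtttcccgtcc
Creld2: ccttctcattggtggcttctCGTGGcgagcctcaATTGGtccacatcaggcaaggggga
Calr: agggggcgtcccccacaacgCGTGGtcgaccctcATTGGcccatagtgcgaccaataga
Dnajc3: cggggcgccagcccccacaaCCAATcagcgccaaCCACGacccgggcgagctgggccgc
Syvn1: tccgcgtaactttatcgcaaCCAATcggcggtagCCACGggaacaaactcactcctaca

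In GRCm38.p6 these stretches are chr2:34772005-34772063 for Hspa5, chr12:17266471-17266529 for Pdia6, chr15:88819500-88819558 for Creld2, chr14:118937807-118937865 for Dnajc3 and chr19:6046512-6046570 for Syvn1, all on the plus strand. On the minus strand they are chr11:50325780-50325838 for Canx, chr8:84847055-84847113 for Calr, and chr10:86705618-86705676 and chr10:86705513-86705571 for Hsp90b1. All lie upstream of the annotated start. The first base of the element is 65 bases before the start in Hspa5, 98 in Pdia6, 145 in Canx, 212 and 107 in Hsp90b1, 126 in Creld2, 162 in Calr, 105 in Dnajc3 and 44 in Syvn1. Among the 8 genes with the element 5 were called higher and 0 lower against eTreg, and among the 22 genes without it 5 were called higher and 2 lower. Against e_iTreg the counts were 5 higher and 0 lower with the element, and 7 higher and 3 lower without it. Of the 5 genes whose promoters could not be searched, 4 were called higher against eTreg and 3 against e_iTreg, and 0 lower in either. The element was thus present both in genes that were called higher, such as Pdia6, and in Hspa5 and Syvn1, which were called in neither comparison. Over all probe sets 5.36% were called higher and 4.63% lower against eTreg, and 6.49% and 4.75% against e_iTreg. All of the 8 genes but Syvn1 are chaperones or folding enzymes, of which 10 of 15 were called higher in each comparison. These counts do not separate the element from that branch, and no link to it was tested. A shorter form, ERSE-II (ATTGG, 1 base of any kind, then CCACG), which shares the CCACG letters, was found in Dnajb11 and Herpud1 and in 12 promoters of all genes (0.0365%). In Herpud1, which carries it 52 bases before the start at chr8:94386357-94386407 on the plus strand, it reads as below, with the fixed letters in capitals.
Herpud1: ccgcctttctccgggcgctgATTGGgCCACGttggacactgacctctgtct
The unfolded protein response element bound by XBP1 (TGACGTGG) was in 0 of the 30 promoters and 0.676% of all promoters. The amino acid response element bound by ATF4 (TTGCATCA) was in the promoters of Chac1 and Herpud1 and in 0.895% of all promoters. A match describes these letters in this window and is no measured binding site.

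Chaperones and folding enzymes made up the largest share of the genes called higher. Of the 15 read, 10 were called higher and 1 lower in each comparison, with a median difference of 0.46 against eTreg and 0.49 against e_iTreg. Sdf2l1, a component of the BiP co-chaperone complex that holds unfolded proteins, had the largest difference of the 35 genes. Its log2 levels in replicates 1 to 4 were 8.58, 8.19, 7.86 and 7.68 in eTreg, 8.36, 8.50, 7.79 and 7.81 in e_iTreg and 9.41, 9.51, 9.62 and 10.11 in iTreg. The lowest iTreg array was above the highest of the other 8, and the difference was 1.59 ± 0.21 (SE) against eTreg, a 3.0-fold level (adjusted p = 0.000728), and 1.55 ± 0.21 against e_iTreg (adjusted p = 0.000962). Creld2, an ER protein of the stress response with disulfide isomerase activity, stood at 9.30, 9.32, 9.11 and 8.68 in eTreg, 9.27, 9.38, 9.11 and 8.86 in e_iTreg and 9.89, 9.57, 9.87 and 11.17 in iTreg. All 4 iTreg arrays were above the others, but replicate 4 lay 1.39 above the mean of iTreg replicates 1 to 3. The Creld2 difference was 1.02 ± 0.27, or 2.03-fold, against eTreg (adjusted p = 0.0239) and 0.97 ± 0.27 against e_iTreg (adjusted p = 0.0298). It was not called against eTreg without eTreg replicate 3 (1.03, adjusted p = 0.0579) or without eTreg replicate 4 (0.88, adjusted p = 0.0768), nor against e_iTreg when any of e_iTreg replicates 1, 3 and 4 was left out (0.87 to 1.01, adjusted p = 0.0559 to 0.0854). Without iTreg replicate 4 it kept its calls with smaller differences (0.67, adjusted p = 0.0203 against eTreg, and 0.62, adjusted p = 0.0295 against e_iTreg).

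Hsp90b1 encodes GRP94, the HSP90 chaperone of the ER, which folds integrins and Toll-like receptors. Its log2 levels were 11.34, 11.19, 11.16 and 11.54 in eTreg, 11.31, 11.35, 11.28 and 11.18 in e_iTreg and 12.24, 11.64, 12.01 and 12.71 in iTreg. Every iTreg array was above all arrays of the other groups, and replicate 4 was again the highest. The difference was 0.84 ± 0.17 against eTreg (1.79-fold, adjusted p = 0.00633) and 0.87 ± 0.17 against e_iTreg (adjusted p = 0.00522). Pdia6, a disulfide isomerase, was at 8.75, 8.32, 8.43 and 8.43 in eTreg, 8.31, 8.47, 8.62 and 8.40 in e_iTreg and 9.31, 8.99, 9.20 and 9.44 in iTreg. Here iTreg replicates 1, 3 and 4 were close together and the group lay above all others, with differences of 0.75 ± 0.12 (1.68-fold, adjusted p = 0.00194) and 0.79 ± 0.12 (adjusted p = 0.00148). Dnajb11 encodes ERdj3, a soluble co-chaperone that hands unfolded proteins to BiP. It was at 8.74, 8.64, 8.58 and 8.70 in eTreg, 8.51, 8.87, 8.75 and 8.57 in e_iTreg and 9.57, 9.12, 9.22 and 9.61 in iTreg. Its iTreg arrays did not overlap those of the other groups, and the differences were 0.71 ± 0.12 (1.64-fold, adjusted p = 0.00249) and 0.71 ± 0.12 (adjusted p = 0.00273).

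Canx encodes calnexin, the membrane lectin that holds newly made glycoproteins while they fold. It was at 10.89, 10.72, 10.75 and 10.85 in eTreg, 10.78, 10.77, 10.79 and 10.73 in e_iTreg and 11.41, 11.06, 11.27 and 11.37 in iTreg, so that iTreg lay apart from the other groups. Its difference was 0.47 ± 0.09 against eTreg (1.39-fold, adjusted p = 0.00555) and 0.51 ± 0.09 against e_iTreg (adjusted p = 0.00386). Ppib, or cyclophilin B, which isomerizes prolines in the ER, was at 10.25, 9.99, 10.05 and 10.14 in eTreg, 10.06, 10.22, 10.11 and 9.81 in e_iTreg and 10.50, 10.55, 10.47 and 10.76 in iTreg. All iTreg arrays were above the others, and the differences were 0.46 ± 0.11 (adjusted p = 0.0137) and 0.52 ± 0.11 (adjusted p = 0.00698). Sdf2l1, Hsp90b1, Pdia6, Dnajb11, Canx and Ppib kept their calls in both comparisons whichever single array was left out.

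Other chaperones were called with less margin. Manf, a small ER-resident protein released under stress, was at 7.84, 7.84, 7.73 and 7.61 in eTreg, 7.69, 7.87, 7.88 and 7.79 in e_iTreg and 7.95, 8.19, 8.29 and 8.26 in iTreg. Its iTreg arrays were above all others, with differences of 0.42 ± 0.10 (adjusted p = 0.0152) and 0.36 ± 0.10 (adjusted p = 0.0298), and the call was lost against eTreg without eTreg replicate 4 (0.37, adjusted p = 0.0521) and against e_iTreg when any of e_iTreg replicates 1 and 4 or iTreg replicates 3 and 4 was left out (0.33 to 0.36, adjusted p = 0.0715 to 0.0882). Hyou1, a large ATPase that recharges BiP, was at 8.57, 8.60, 8.54 and 8.42 in eTreg, 8.62, 8.55, 8.42 and 8.53 in e_iTreg and 9.10, 8.59, 8.94 and 9.41 in iTreg. Replicate 2 of iTreg lay within the range of the other groups and replicate 4 was the highest of all arrays. The Hyou1 difference was 0.48 ± 0.14 (adjusted p = 0.0377) and 0.48 ± 0.14 (adjusted p = 0.0347). Its call ended against eTreg when any of eTreg replicates 1, 2, 3 and 4, e_iTreg replicate 1 or iTreg replicates 1, 3 and 4 was left out (0.35 to 0.50, adjusted p = 0.0506 to 0.101), and against e_iTreg when any of e_iTreg replicates 1, 2, 3 and 4 or iTreg replicates 1, 3 and 4 was left out (0.35 to 0.51, adjusted p = 0.0522 to 0.0922). Calr, or calreticulin, the soluble partner of calnexin, was at 10.00, 9.79, 9.94 and 9.89 in eTreg, 10.14, 10.01, 9.80 and 10.06 in e_iTreg and 10.54, 10.11, 10.12 and 10.41 in iTreg. Its e_iTreg and iTreg arrays overlapped, and it was called against eTreg (0.39 ± 0.12, adjusted p = 0.0461) but not against e_iTreg (0.29 ± 0.12, adjusted p = 0.123). The call against eTreg ended when any of eTreg replicates 1, 2, 3 and 4, e_iTreg replicates 1, 2 and 4 or iTreg replicates 1 and 4 was left out (0.31 to 0.42, adjusted p = 0.0545 to 0.145). Dnajc3, or P58IPK, a BiP co-chaperone, was at 9.73, 9.41, 9.59 and 9.83 in eTreg, 9.46, 9.51, 9.11 and 9.66 in e_iTreg and 10.05, 9.72, 9.69 and 10.22 in iTreg. It was called against e_iTreg (0.49 ± 0.15, adjusted p = 0.0451), whose replicate 3 was the lowest of all arrays, and not against eTreg (0.28 ± 0.15, adjusted p = 0.295), whose range overlapped that of iTreg. That call ended when any of eTreg replicates 1 and 3, e_iTreg replicates 1, 2 and 3 or iTreg replicates 1 and 4 was left out (0.38 to 0.51, adjusted p = 0.0539 to 0.137).

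Hspa5 was called in neither comparison, although BiP is the commonest marker of ER stress and its promoter holds the element shown above. It was at 10.85, 10.87, 10.71 and 10.53 in eTreg, 10.91, 10.92, 10.19 and 10.62 in e_iTreg and 10.91, 10.76, 10.71 and 10.85 in iTreg, and the 3 groups overlapped. The difference was 0.07 ± 0.14 against eTreg with a 95% interval of -0.24 to 0.38 (adjusted p = 0.869), and 0.15 ± 0.14 against e_iTreg with an interval of -0.16 to 0.46 (adjusted p = 0.539). The upper ends of both intervals lie below the differences of Sdf2l1, Creld2, Hsp90b1, Pdia6 and Dnajb11. Against e_iTreg, however, the 95% intervals of Creld2 (from 0.40) and Dnajb11 (from 0.44) overlap that of Hspa5. In both comparisons the interval of Hspa5 holds the differences of P4hb and Pdia3, and no gene was tested against another. The protein disulfide isomerases P4hb (0.38 ± 0.13, adjusted p = 0.0797 against eTreg, and 0.40 ± 0.13, adjusted p = 0.0553 against e_iTreg) and Pdia3 (0.24 ± 0.09, adjusted p = 0.102, and 0.23 ± 0.09, adjusted p = 0.11) were not called, although every iTreg array was above the other 8 for Pdia3. Dnajb9, or ERdj4, a BiP co-chaperone that restrains IRE1 and is itself a target of XBP1, was the chaperone that fell. It was at 10.97, 10.76, 11.07 and 10.95 in eTreg, 10.72, 10.87, 11.11 and 10.94 in e_iTreg and 10.49, 10.52, 10.21 and 10.46 in iTreg. All 4 iTreg arrays were below the other 8, and it fell by 0.52 against eTreg (SE 0.11, adjusted p = 0.00744) and by 0.49 against e_iTreg (adjusted p = 0.0105), whichever single array was left out.

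Of the 4 import genes, 2 were called higher in each comparison, with medians of 0.44 and 0.49. Ssr1, a subunit of the translocon-associated complex that sits beside the Sec61 channel, was at 8.14, 8.11, 8.0 and 7.92 in eTreg, 7.90, 7.96, 7.94 and 7.89 in e_iTreg and 8.74, 8.49, 8.49 and 8.55 in iTreg. Its iTreg arrays were all above the others and close together, with differences of 0.53 ± 0.09 (adjusted p = 0.00249) and 0.65 ± 0.09 (adjusted p = 0.00099), whichever array was left out. A second, dimmer probe set of Ssr1 gave 0.16 and 0.34 and was called in neither comparison (adjusted p = 0.581 and 0.129). Sec11c, a catalytic subunit of the signal peptidase, was at 10.00, 9.79, 9.96 and 9.72 in eTreg, 9.80, 10.21, 9.88 and 9.89 in e_iTreg and 10.36, 10.17, 10.24 and 10.41 in iTreg. Its ranges in e_iTreg and iTreg overlapped through e_iTreg replicate 2. The difference was 0.43 ± 0.11 against eTreg (adjusted p = 0.0217), a call that ended when any of eTreg replicates 2 and 4 or iTreg replicates 1 and 4 was left out (0.38 to 0.41, adjusted p = 0.0614 to 0.0706). Against e_iTreg it was 0.35 ± 0.11 (adjusted p = 0.0537). Sec61b, the beta subunit of the channel, was at 6.84, 6.15, 6.20 and 6.06 in eTreg, 6.30, 5.95, 6.11 and 6.22 in e_iTreg and 6.70, 6.38, 6.78 and 7.23 in iTreg. Its eTreg replicate 1 lay inside the iTreg range, and it was called against e_iTreg (0.63 ± 0.18, adjusted p = 0.0394) but not against eTreg (0.46 ± 0.18, adjusted p = 0.146). The call against e_iTreg ended when any of e_iTreg replicates 1, 2, 3 and 4 or iTreg replicates 1, 3 and 4 was left out (0.47 to 0.68, adjusted p = 0.058 to 0.108). Ssr3, another subunit of the translocon-associated complex, was called in neither (0.26 ± 0.11, adjusted p = 0.182, and 0.11 ± 0.11, adjusted p = 0.547).

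ER-associated degradation pulls misfolded proteins back to the cytosol for the proteasome. All 6 of its genes had differences above 0 in both comparisons. The medians were 0.15 against eTreg and 0.11 against e_iTreg. Against eTreg 0 of the 6 were called, where 9.99% of all probe sets were called in either direction. With 6 genes this count cannot be told from that share. Against e_iTreg 1 gene was called, where 11.2% of all probe sets were. That gene was Derl2, a derlin of the dislocation channel, at 6.87, 6.55, 6.66 and 6.87 in eTreg, 6.42, 6.98, 6.45 and 6.39 in e_iTreg and 7.29, 7.03, 7.12 and 7.25 in iTreg. All iTreg arrays were above the others, by little in the case of e_iTreg replicate 2, and the difference was 0.61 ± 0.13 against e_iTreg (adjusted p = 0.00884), whichever array was left out, and 0.44 ± 0.13 against eTreg (adjusted p = 0.052). Its other probe set gave 0.32 and 0.26, respectively, and was called in neither comparison (adjusted p = 0.229 and 0.404). The ubiquitin ligase Syvn1 (HRD1) differed by 0.26 ± 0.17 against eTreg (adjusted p = 0.435), and iTreg replicate 4 lay 0.79 above the mean of iTreg replicates 1 to 3. Sel1l, the partner of Syvn1, gave 0.19 ± 0.16, adjusted p = 0.599 against eTreg and 0.29 ± 0.16, adjusted p = 0.277 against e_iTreg. Herpud1, a scaffold of the same complex, gave 0.12 ± 0.12, adjusted p = 0.676 and 0.02 ± 0.12, adjusted p = 0.924. The derlin Derl1 gave 0.08 ± 0.10, adjusted p = 0.754 and 0.13 ± 0.10, adjusted p = 0.424. Edem1, a lectin that delivers misfolded glycoproteins for degradation, gave 0.03 ± 0.13 against eTreg with a 95% interval of -0.24 to 0.29 (adjusted p = 0.952). The difference between this branch and the chaperones was not tested.

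Among the 3 sensors only Atf6 was called. Its levels were 9.55, 9.19, 8.83 and 8.84 in eTreg, 9.39, 9.57, 8.98 and 8.99 in e_iTreg and 10.01, 9.46, 9.95 and 10.33 in iTreg, and iTreg replicate 2 lay below e_iTreg replicate 2 and eTreg replicate 1. The difference was 0.84 ± 0.20 (1.79-fold) against eTreg (adjusted p = 0.0142) and 0.71 ± 0.20 against e_iTreg (adjusted p = 0.0322). Its call ended against eTreg without eTreg replicate 3 (0.75, adjusted p = 0.0527) and against e_iTreg when any of e_iTreg replicates 1, 3 and 4 or iTreg replicates 1, 3 and 4 was left out (0.58 to 0.76, adjusted p = 0.0515 to 0.102). Ern1, which encodes IRE1 alpha, was at 8.22, 8.13, 8.15 and 8.20 in eTreg, 8.19, 8.38, 8.20 and 8.38 in e_iTreg and 8.51, 8.02, 8.46 and 9.03 in iTreg. Its iTreg arrays spread on both sides of the others, from 8.02 to 9.03, and it was not called (0.33 ± 0.16, adjusted p = 0.244 against eTreg, 0.22 ± 0.16, adjusted p = 0.399 against e_iTreg), although without iTreg replicate 2 it was called against eTreg (0.49, adjusted p = 0.03). Eif2ak3, which encodes PERK, was at 8.31, 8.53, 9.15 and 8.18 in eTreg, 8.71, 8.47, 8.43 and 9.17 in e_iTreg and 8.37, 7.91, 8.26 and 8.36 in iTreg. The groups overlapped and it was not called (-0.32 ± 0.20, adjusted p = 0.431, and -0.47 ± 0.20, adjusted p = 0.156). Xbp1, whose mRNA IRE1 splices, was at 10.00, 9.89, 10.26 and 9.87 in eTreg, 9.75, 10.04, 9.91 and 10.07 in e_iTreg and 9.85, 9.75, 9.98 and 10.97 in iTreg. It stood apart only in iTreg replicate 4, and its difference was 0.13 ± 0.21 with a 95% interval of -0.31 to 0.57 against eTreg (adjusted p = 0.82), and 0.19 ± 0.21 against e_iTreg (adjusted p = 0.585). These probe sets read the level of the mRNA of each sensor and of Xbp1, and neither the splicing of Xbp1 nor the activity of a sensor was measured.

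Genes of the PERK branch were called in both directions. Atf4, its transcription factor, was at 12.18, 12.17, 12.41 and 12.11 in eTreg, 12.31, 12.22, 12.17 and 12.41 in e_iTreg and 11.84, 12.14, 11.94 and 11.81 in iTreg. It was called lower against e_iTreg (-0.34 ± 0.10, adjusted p = 0.0473) and not against eTreg (-0.28 ± 0.10, adjusted p = 0.109), and iTreg replicate 2 lay within the eTreg range. That call ended when any of eTreg replicates 1, 2 and 4, e_iTreg replicates 1, 2, 3 and 4 or iTreg replicates 1, 3 and 4 was left out (-0.38 to -0.30, adjusted p = 0.0531 to 0.131), while without iTreg replicate 2 it was also called lower against eTreg (-0.35, adjusted p = 0.0471). Ddit3, or CHOP, a transcription factor of prolonged stress, was at 10.27, 10.15, 10.57 and 9.82 in eTreg, 10.35, 10.21, 9.91 and 10.51 in e_iTreg and 9.96, 9.76, 9.61 and 9.85 in iTreg. It was called in neither comparison (-0.41 ± 0.16, adjusted p = 0.129, and -0.45 ± 0.16, adjusted p = 0.0786). It was called lower against eTreg without eTreg replicate 4 (-0.53, adjusted p = 0.044) and against e_iTreg without e_iTreg replicate 3 (-0.56, adjusted p = 0.0432). Ppp1r15a, or GADD34, the phosphatase subunit that ends the translational block, was at 12.08, 12.30, 12.25 and 11.97 in eTreg, 12.23, 12.08, 12.25 and 12.19 in e_iTreg and 11.58, 11.90, 11.48 and 11.57 in iTreg. All 4 iTreg arrays were below the others. It fell by 0.52 against eTreg (SE 0.11, adjusted p = 0.0073) and by 0.56 against e_iTreg (adjusted p = 0.00492), whichever array was left out. Asns, asparagine synthetase, an ATF4 target, was at 7.18, 6.94, 6.86 and 6.90 in eTreg, 7.03, 7.09, 6.86 and 6.66 in e_iTreg and 7.27, 7.32, 7.57 and 7.45 in iTreg, and went the other way. Its iTreg arrays were all above the others, with differences of 0.43 ± 0.12 against eTreg (adjusted p = 0.0267) and 0.49 ± 0.12 against e_iTreg (adjusted p = 0.0132). The call against eTreg ended when any of eTreg replicates 2, 3 and 4 or iTreg replicates 3 and 4 was left out (0.38 to 0.42, adjusted p = 0.0625 to 0.0863). Chac1, which degrades glutathione, and Trib3, a pseudokinase that restrains ATF4, are targets of the same factor. Chac1 gave 0.28 ± 0.13, adjusted p = 0.247 against eTreg and 0.07 ± 0.13, adjusted p = 0.785 against e_iTreg. Trib3 gave -0.01 ± 0.09, adjusted p = 0.973 and -0.15 ± 0.09, adjusted p = 0.309. The 10 sensors and stress factors together had median differences of 0.06 and -0.04.

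**Figure D2:**
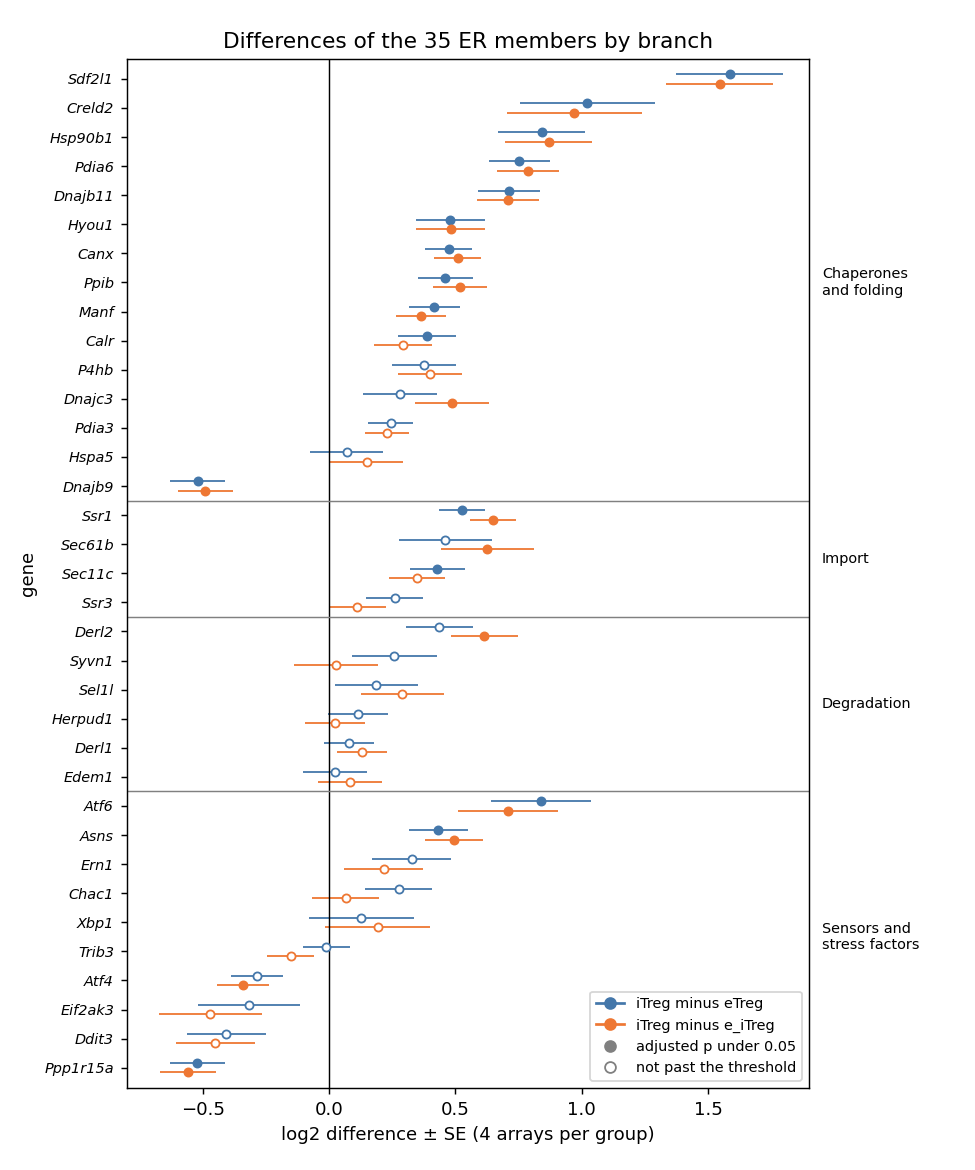
Log2 difference with its SE (horizontal axis, 4 arrays per group) of each of the 35 genes by branch (vertical axis), for iTreg minus eTreg and iTreg minus e_iTreg. Filled points have an adjusted p under 0.05. The chaperones lie mostly to the right of 0 with Dnajb9 to the left. The degradation genes all lie to the right of 0, with a filled point for Derl2 only, and the stress factors lie on both sides.

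The e_iTreg and eTreg groups, which by the series design differ in IVIg against HSA without DTx, held no ER gene that was called. Of the 35 genes 0 were called by limma in e_iTreg minus eTreg and 0 had an unadjusted p under 0.05, and of all probe sets 0% were called, while 1649 had an unadjusted p under 0.05. The largest difference among the 35 was 0.23 in size, the smallest adjusted p among them was 0.732, and the median was 0.01, beside 0.03 over all probe sets. The e_iTreg sort holds endogenous and induced cells together, and their proportions are not given in the labels.

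Other genes of the same machinery were read from 7 lists drawn up by function, with 105 of 111 genes read. Against eTreg 27 were called higher and 3 lower, and against e_iTreg 29 higher and 4 lower, against the shares of all probe sets given above. In e_iTreg minus eTreg 0 were called. The genes named here are those with the smallest p in each list. Of 13 genes for N-glycosylation and glycoprotein folding, 6 were called higher and 0 lower in each comparison. They included the oligosaccharyltransferase subunits Ddost (0.56 ± 0.09, adjusted p = 0.00197 against eTreg), Rpn1 (0.68 ± 0.13, adjusted p = 0.00514), Krtcap2 (0.69 ± 0.13, adjusted p = 0.00437) and Stt3a (0.48 ± 0.10, adjusted p = 0.00823). Of 17 other import genes, 4 were called higher in each comparison. The 4 against eTreg were Ssr2 of the translocon-associated complex (0.56 ± 0.12, adjusted p = 0.00834), Spcs3 of the signal peptidase (0.57 ± 0.14, adjusted p = 0.0175), Srp19 of the signal recognition particle (0.44 ± 0.10, adjusted p = 0.015) and Sec61a1, the pore of the channel (0.37 ± 0.11, adjusted p = 0.042). The call of Sec61a1 ended when any of eTreg replicates 1, 2, 3 and 4, e_iTreg replicates 1 and 4 or iTreg replicates 1, 3 and 4 was left out (0.30 to 0.39, adjusted p = 0.0547 to 0.133), and that of Spcs3 without eTreg replicate 3 (0.55, adjusted p = 0.0537). Against e_iTreg Sec61a1 was not called (0.35 ± 0.11, adjusted p = 0.0507), and Srp68 of the signal recognition particle was (0.46 ± 0.13, adjusted p = 0.0301). Of 13 genes of transport from the ER to the Golgi, 6 were called higher against eTreg and 8 against e_iTreg, among them the COPII coat genes Sec23b (0.53 ± 0.11, adjusted p = 0.00672 against eTreg) and Sar1b (0.55 ± 0.11, adjusted p = 0.0068) and the cargo receptors Surf4 (0.51 ± 0.11, adjusted p = 0.0082) and Tmed2 (0.50 ± 0.11, adjusted p = 0.00874).

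Of 14 other folding and redox genes, 4 were called higher in each comparison, and they were not all the same genes. Prdx4, the peroxiredoxin of the ER, gave 1.39 ± 0.18, adjusted p = 0.000622 against eTreg, a 2.62-fold level, at 7.96, 7.37, 7.53 and 7.35 in eTreg, 7.25, 7.94, 7.44 and 7.0 in e_iTreg and 8.91, 8.97, 8.74 and 9.14 in iTreg. Its iTreg arrays were all above the others. The prolyl isomerase Fkbp2 gave 1.18 ± 0.19, adjusted p = 0.00179 and the HSP70 relative Hspa13 gave 0.75 ± 0.17, adjusted p = 0.0116. Txndc5, a disulfide isomerase that plasma cells hold at high levels, gave 0.69 ± 0.20, adjusted p = 0.0456, a call that ended when any of eTreg replicates 2, 3 and 4, e_iTreg replicates 1, 2, 3 and 4 or iTreg replicates 1, 3 and 4 was left out (0.42 to 0.74, adjusted p = 0.0545 to 0.114). Prdx4 and Fkbp2 were also called against e_iTreg, and Hspa13 (0.52 ± 0.17, adjusted p = 0.0616) and Txndc5 (0.65 ± 0.20, adjusted p = 0.053) were not. The others called against e_iTreg were the disulfide isomerases Erp44 (0.43 ± 0.13, adjusted p = 0.0465) and Tmx1 (0.50 ± 0.14, adjusted p = 0.0303). Of 13 other degradation genes only Selenos was called higher against eTreg (0.49 ± 0.12, adjusted p = 0.0181), and that call ended when any of eTreg replicate 4 or iTreg replicates 1 and 4 was left out (0.41 to 0.45, adjusted p = 0.0559 to 0.0638). The segregase Vcp (0.24 ± 0.09, adjusted p = 0.115), Nploc4 (0.22 ± 0.11, adjusted p = 0.294) and Rnf5 (0.28 ± 0.15, adjusted p = 0.3) were not called. The ubiquitin-conjugating enzyme Ube2j1 was called lower against e_iTreg alone (-0.35 ± 0.10, adjusted p = 0.0436; -0.16 ± 0.10, adjusted p = 0.441 against eTreg), and the difference between the comparisons was not tested. Of 23 other ATF4 targets and regulators, 6 were called higher and 1 lower in each comparison. Those higher included the tRNA synthetases Wars (0.70 ± 0.14, adjusted p = 0.00555 against eTreg) and Gars (0.55 ± 0.11, adjusted p = 0.00521), the mitochondrial folate enzyme Mthfd2 (0.55 ± 0.13, adjusted p = 0.0117) and the serine synthesis enzyme Psat1 (0.72 ± 0.19, adjusted p = 0.0238), whose call ended when any of eTreg replicates 2, 3 and 4 or iTreg replicates 1 and 3 was left out (0.64 to 0.74, adjusted p = 0.0523 to 0.0743). The gene called lower was Eif2ak4, or GCN2, the sensor of amino acid shortage (-0.45 ± 0.13, adjusted p = 0.0376), named because it was the only one in that direction. Of 12 other regulators of the response 0 were called higher and 2 lower in each comparison, and both encode BH3-only death proteins. Bcl2l11, or BIM, gave -0.75 ± 0.13, adjusted p = 0.00253 against eTreg and Bbc3, or PUMA, gave -0.59 ± 0.12, adjusted p = 0.00618. The ATF6 protease Mbtps1 (-0.30 ± 0.10, adjusted p = 0.0848) and Tmbim6 (0.16 ± 0.09, adjusted p = 0.344) were not called. Without iTreg replicate 4 the counts over the 105 genes were 20 higher and 2 lower against eTreg and 22 higher and 2 lower against e_iTreg. Other fits, described below for the ER genes, left fewer of the 30 calls against eTreg and the 33 against e_iTreg. They left 7 and 20 with the plasma cell marker mean as a covariate, 0 and 0 with the cell cycle marker mean, 5 and 22 without the 3 arrays of lowest B cell marker mean, and 13 and 13 without the 3 arrays with the signal of 1 sex. A fold of at least 1.5 was reached by 12 and 19. The calls over all probe sets fell in these fits too, from 2349 against eTreg and 2643 against e_iTreg. They were 1900 and 2069 without iTreg replicate 4, and 841 and 1446 with the plasma cell marker mean. With the cell cycle marker mean they were 12 and 27. Without the 3 arrays of lowest B cell marker mean 400 and 1356 were called, without those of 1 sex 1164 and 1070, and at that fold 1089 and 1121.

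**Figure D3:**
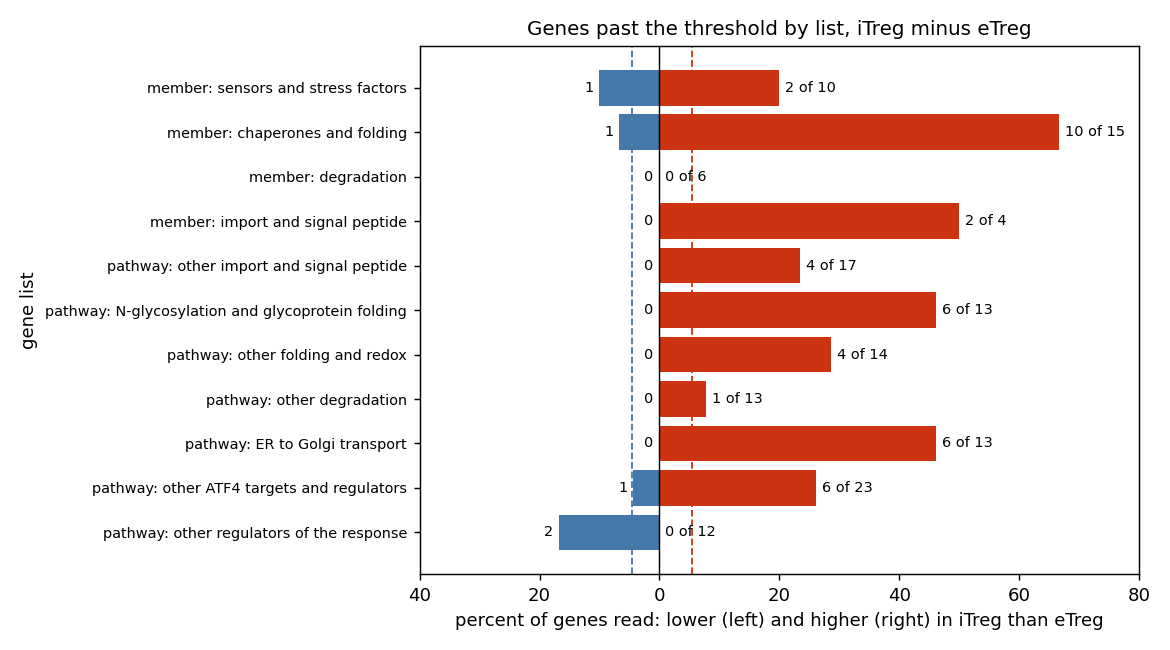
Percent of the genes read in each list (vertical axis, 4 member lists and 7 lists of other pathway genes) called higher (right) and lower (left) in iTreg minus eTreg, with counts beside the bars and the shares over all probe sets as dashed lines (5.36% higher and 4.63% lower). Chaperones, with 10 of 15 higher, have the longest bar, and the member list of degradation genes has 0 of 6 in either direction.

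Markers of plasma cells moved with part of these results. The 7 plasma cell markers had mean levels of 7.28, 7.09, 6.72 and 6.73 in eTreg, 7.37, 7.10, 7.41 and 6.86 in e_iTreg and 7.74, 7.22, 7.36 and 9.37 in iTreg. All 7 had positive differences in both comparisons, and 0 of the 7 were called in either. Jchain, the joining chain of secreted IgM and IgA, was at 6.68, 6.54, 4.84 and 5.16 in eTreg, 6.94, 6.55, 6.43 and 5.42 in e_iTreg and 8.18, 6.67, 7.16 and 11.69 in iTreg. Its iTreg replicates 1, 3 and 4 were above every eTreg and e_iTreg array. The Jchain difference was 2.62 ± 0.81 against eTreg (adjusted p = 0.0551) and 2.09 ± 0.81 against e_iTreg (adjusted p = 0.117). Mzb1, an ER chaperone of antibody-secreting cells, was at 6.85, 6.80, 6.65 and 6.66 in eTreg, 7.06, 7.18, 7.09 and 6.76 in e_iTreg and 7.59, 7.04, 7.01 and 10.17 in iTreg. Both were highest in iTreg replicate 4, and the receptor Tnfrsf17 (0.45 ± 0.15, adjusted p = 0.0864 against eTreg) and the surface proteoglycan Sdc1 (0.45 ± 0.17, adjusted p = 0.117) were not called. Of the wider list of 13 plasma cell markers 2 were called higher against eTreg, Txndc5 and Prdm1 (1.04 ± 0.19, adjusted p = 0.00364), and Prdm1 encodes Blimp-1, which effector Treg also express. The ER proteins Mzb1, Derl3, Fkbp11 and Txndc5 of that list had a mean of 9.26 in iTreg replicate 4 and of 6.88 to 7.13 in iTreg replicates 1 to 3, beside 6.62 to 7.0 in the other 8 arrays.

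The 15 chaperones had mean levels of 9.76, 9.60, 9.59 and 9.57 in eTreg, 9.64, 9.73, 9.55 and 9.54 in e_iTreg and 10.18, 9.93, 10.03 and 10.40 in iTreg. All 4 iTreg arrays were above the other 8, and replicate 4 was the highest. The genes differed in how far replicate 4 lay above the mean of iTreg replicates 1 to 3. The gap was 1.39 for Creld2, 1.11 for Xbp1, 0.79 for Syvn1, 0.75 for Hsp90b1, 0.70 for Ern1 and 0.60 for Sdf2l1, while it was 0.06 for Hspa5 and Asns, 0.05 for Dnajb9 and -0.02 for Ssr1. For 12 of the 35 genes iTreg replicates 1 to 3 were by themselves all above the other 8 arrays, and for 2 all below. The share of all probe sets that did so was not computed, so these counts have no background to be read against.

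**Figure D4:**
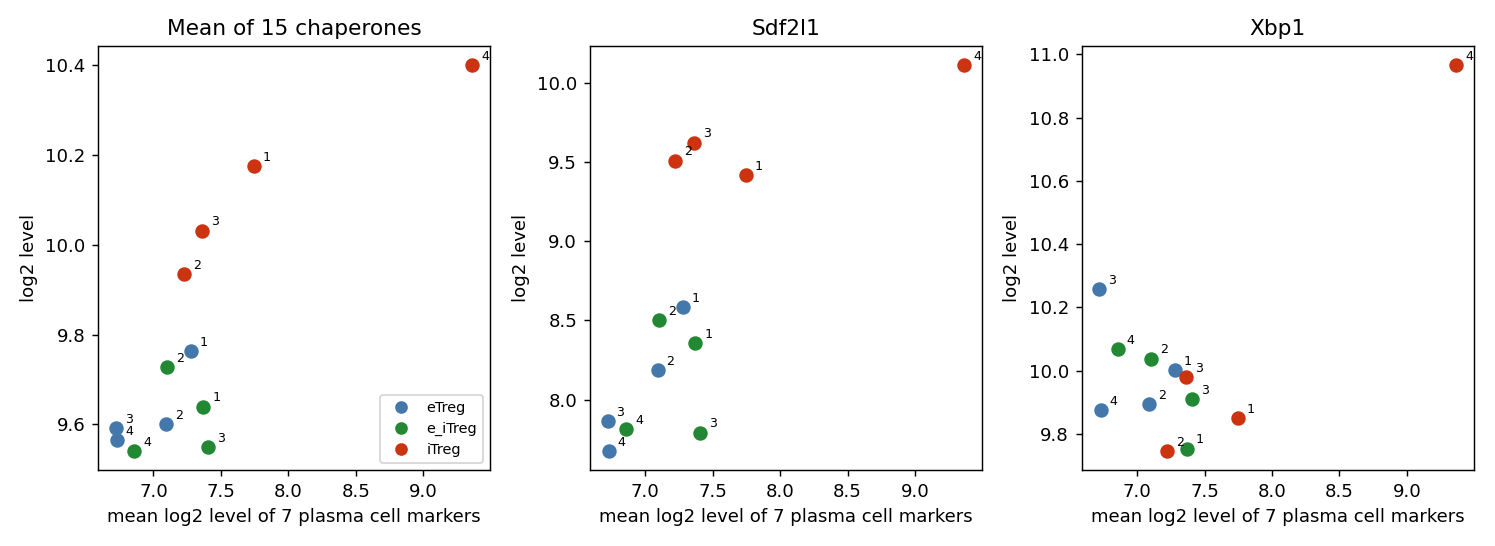
Mean log2 level of the 15 chaperones, and log2 levels of Sdf2l1 and of Xbp1 (vertical axes), against the mean log2 level of the 7 plasma cell markers (horizontal axis) in each of the 12 arrays, with the replicate number beside each point. The point of iTreg replicate 4 is at 9.37 on the horizontal axis, apart from the other 11. The other 3 iTreg arrays share the plasma marker range of the eTreg and e_iTreg arrays or lie just above it, are above them for the chaperone mean and Sdf2l1, and lie between 9.75 and 9.98 for Xbp1, beside 9.75 to 10.26 in the eTreg and e_iTreg arrays.

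The differences were therefore computed again without iTreg replicate 4. Against eTreg, 12 of the 16 genes kept their call, 10 higher and 2 lower, while the calls over all probe sets went from 2349 to 1900. The median difference of the 35 was 0.22 in place of 0.33. The difference of Sdf2l1 was then 1.44, adjusted p = 0.00168. That of Hsp90b1 was 0.65, adjusted p = 0.00964, that of Pdia6 0.68, adjusted p = 0.00492, that of Creld2 0.67, adjusted p = 0.0203 and that of Atf6 0.71, adjusted p = 0.0418. The calls of Hyou1, Calr, Asns and Sec11c against eTreg ended, with the values given above. Xbp1 moved from 0.13 to -0.15 and Edem1 from 0.03 to -0.11, neither called with or without that array. Against e_iTreg 12 genes were called without it, in place of 18, and 2069 probe sets in place of 2643. Of the 12 genes higher in both comparisons, 10 were still called against eTreg and 9 against e_iTreg, all 12 with positive differences, of 0.35 to 1.44 and of 0.33 to 1.40.

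With the mean of the 7 plasma cell markers as a covariate over all 12 arrays, 4 genes were called against eTreg in place of 16, and 9 against e_iTreg in place of 18. The 4 were Sdf2l1 (1.24, adjusted p = 0.0142), Pdia6 (0.58, adjusted p = 0.0344), Dnajb11 (0.54, adjusted p = 0.0469) and Ssr1 (0.49, adjusted p = 0.0367). Over all probe sets the calls went from 2349 to 841 against eTreg and from 2643 to 1446 against e_iTreg in that fit. The median difference of the 35 genes against eTreg was 0.16 in place of 0.33. Among the calls that ended, the difference against eTreg was 0.34, adjusted p = 0.29 for Creld2, 0.21, adjusted p = 0.473 for Hyou1 and 0.48, adjusted p = 0.102 for Hsp90b1, each smaller than with no covariate. It was -0.53, adjusted p = 0.0543 for Dnajb9 and -0.48, adjusted p = 0.076 for Ppp1r15a, close to the values with no covariate. The 12 genes higher in both comparisons had differences of 0.21 to 1.24 against eTreg, with a median of 0.43 in place of 0.62. The marker mean was 9.37 in iTreg replicate 4 and 6.72 to 7.74 elsewhere, so the slope of this covariate rests largely on that array. Its lowest values, 6.72, 6.73 and 6.86, were in eTreg replicates 3 and 4 and e_iTreg replicate 4, the arrays lowest in B cell markers.

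**Figure D5:**
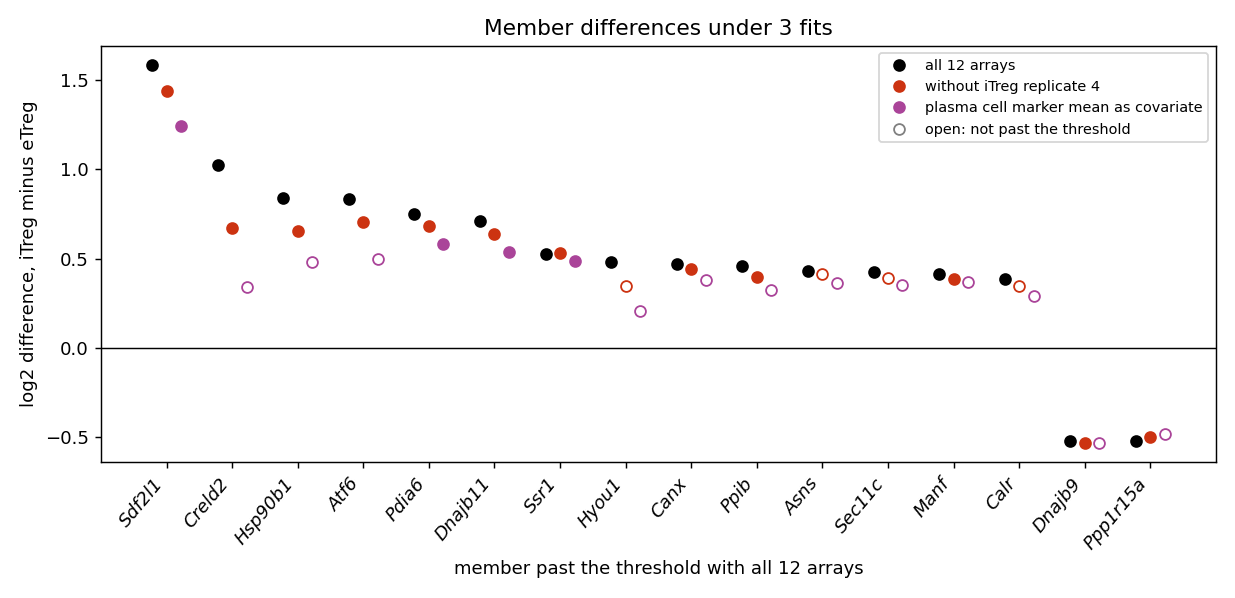
Log2 difference in iTreg minus eTreg (vertical axis) of the 16 genes called with all 12 arrays (horizontal axis), with all arrays, without iTreg replicate 4, and with the plasma cell marker mean as a covariate. Filled points have an adjusted p under 0.05. Every point keeps its side of 0, and most open points are those of the covariate fit.

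Cell cycle markers moved with the iTreg group as a whole. The mean of 12 such markers was 9.26, 8.19, 8.0 and 7.42 in eTreg, 8.73, 9.32, 7.89 and 7.47 in e_iTreg and 10.49, 10.20, 10.53 and 9.77 in iTreg, with no overlap between iTreg and the other 8 arrays, and 11 of the 12 were called higher against eTreg. Mki67, the antigen of cycling cells, gave 2.41 ± 0.55, adjusted p = 0.0122 against eTreg. Replicate 4 was the lowest iTreg array for this list and the highest for the chaperones, and also the highest for the plasma cell and the myeloid and dendritic markers. With that mean as a covariate 0 of the 35 genes were called in either comparison, and the calls over all probe sets went from 2349 to 12 against eTreg, while the median difference of the 35 against eTreg was 0.27 in place of 0.33. Single genes moved by more. Against eTreg the difference was 0.07, adjusted p = 0.937 for Asns, 0.21, adjusted p = 0.876 for Atf6, 0.87, adjusted p = 0.381 for Sdf2l1 and 0.29, adjusted p = 0.7 for Ppib, while it was 0.95, adjusted p = 0.348 for Hsp90b1. Since the marker ranges of iTreg and the other groups do not overlap, cell cycle level and group cannot be told apart in these arrays.

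The B cell marker list had 0 of 13 genes called in either comparison, and with its mean as a covariate 14 of the 35 genes were called against eTreg and 19 against e_iTreg, and 2044 and 2715 probe sets in all. Without the 3 arrays lowest in that list (eTreg replicates 3 and 4 and e_iTreg replicate 4), which leaves 2 eTreg arrays, 1 gene was called against eTreg, Sdf2l1, in place of 16, and 8 against e_iTreg in place of 18. Over all probe sets the calls went from 2349 to 400 against eTreg and from 2643 to 1356 against e_iTreg in that fit. The differences themselves moved less, with a median of the 35 against eTreg of 0.33 in both fits, and of the 12 genes higher in both comparisons of 0.52 in place of 0.62. Of 11 myeloid and dendritic markers 2 were called higher against eTreg, Itgam (1.68 ± 0.29, adjusted p = 0.00254) and Cst3 (0.57 ± 0.13, adjusted p = 0.0106), and the list mean was 7.94 in iTreg replicate 4 and 6.28 to 7.03 elsewhere. Of 6 markers of CD8 T and NK cells 0 were called. Without the 3 arrays with the signal of 1 sex (eTreg replicate 3, e_iTreg replicate 4 and iTreg replicate 4), a fit chosen after seeing the data, 6 of the 35 genes were called in each comparison, and 1164 and 1070 probe sets in all. The part of plasma cell, myeloid, B cell or cycling-cell RNA in the differences of the ER genes was not tested beyond these fits.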

How the data were processed

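Arrays of 12 samples (3 groups, 4 biological replicates each) were hybridized from 2 ng of RNA after whole-transcript amplification, per the labels' protocols. The deposited values are log2 expression per probe set, made by the authors with oligo and RMA (background correction, normalization between arrays, summary of probes) per the submitters' processing notes. Their versions and a genome build are not given in the sources used here. Of 41345 rows, 23521 had 1 gene symbol in the platform annotation (22180 genes), 1814 had several and 16010 none. Of the 23521, 23328 had a gene number in the RefSeq table of GRCm38.p6, used for names only.

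All 12 arrays entered a single limma model of group (lmFit, then eBayes; limma 3.58.1, R 4.3.3), with 9 degrees of freedom left. Tests were two-sided, and p-values were adjusted by Benjamini-Hochberg over the 23521 rows, with a threshold of 0.05 and no fold threshold. The fit was tested on simulated data. Members, lists, naming rule and alternatives were chosen with earlier results of these data known. Levels in every array are given for genes past the threshold in a comparison with iTreg and for Ern1, Eif2ak3, Atf6, Xbp1, Atf4 and Ddit3, and in each list of other pathway genes up to 4 with the smallest p are named. Eif2ak4, Ube2j1, Erp44, Tmx1, Srp68, Prdm1, Itgam and Cst3 were named after their values were seen. The 31 alternatives were other normalizations, filters, error models, covariates, thresholds and sets of arrays.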

Additional observations from a re-analysis of the deposited data

Results flagged for a closer look

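The spread of each of the 35 ER genes, and of the branch and marker means, was checked in each group for an array far from the other 3 (its gap to the nearest as a share of the group's range, against Dixon's 95% limit). Of 117 groups of 4 arrays checked, 105 of them for single genes, 3 were past that limit, and chance gives about 1 in 20. Chac1 was at 7.13 in iTreg replicate 4 and at 6.61 to 6.65 in the other iTreg arrays (0.908 of the range). Derl2 was at 6.98 in e_iTreg replicate 2 and at 6.39 to 6.45 in the other e_iTreg arrays (0.901 of the range), and without that array its difference against eTreg was called (0.44, adjusted p = 0.0147), as it was in 6 of the 17 alternatives that leave out no single array. Ssr3 was at 8.08 in iTreg replicate 3 and at 8.46 to 8.53 in the other iTreg arrays (0.865 of the range), and without that array its difference against eTreg was called (0.36, adjusted p = 0.0393).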

How the results depend on the processing

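No difference past the threshold, among the ER genes and the other pathway genes named by the rule, changed sign under any of 31 alternatives. Of the ER genes, 16 were called against eTreg and 18 against e_iTreg. Against eTreg the count was 4 with the plasma cell marker mean as a covariate, 0 with the cell cycle mean, 6 with a fold of at least 1.5, 1 without the 3 arrays with the lowest B cell marker mean, 1 without those and iTreg replicate 4, and 6 without the 3 arrays with the signal of 1 sex (chosen after seeing the data). Against e_iTreg, in the same order, it was 9, 0, 9, 8, 6 and 6, and it was 11 with all rows tested. Over all probe sets, 2349 were called against eTreg, and in that order 841, 12, 1089, 400, 484 and 1164. Against e_iTreg 2643 were called, and 1446, 27, 1121, 1356, 1083 and 1070. Leaving out 1 array gave 11 to 18 and 11 to 21 ER genes, and 1487 to 2437 and 1616 to 2852 probe sets. The probe set counts moved by over 1.5 times without eTreg replicate 2 (1547) or 3 (1487) against eTreg, and without e_iTreg replicate 3 (1747) or 4 (1616) or iTreg replicate 1 (1730) against e_iTreg. The ER genes fell to 11 without e_iTreg replicate 1 against e_iTreg, and to 12 without iTreg replicate 4. In e_iTreg minus eTreg 0 were called in every fit. The cause of these losses was not tested, beyond the smaller number of arrays in some fits and the higher fold asked for in another.

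With the replicate number as a block 15, 17 and 0 ER genes were called in iTreg minus eTreg, iTreg minus e_iTreg and e_iTreg minus eTreg. Arrays with the same number correlated at -0.04 to 0.12, -0.15 to 0.04 and 0.07 to 0.24. This is a measure other than the correlation of levels, which was 0.954 to 0.988 between the 12 arrays. By it 1, 0 and 2 of 4 correlated best with their own number, so the numbers were not taken as pairs. No detection call was used, so genes near background were not set apart.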
